A study of Rattus norvegicus with 28 samples.

Results

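Drug-metabolizing enzymes were examined in the terminal ileum of newborn rats: the cytochrome P450 enzymes of families 1 to 4, the UDP-glucuronosyltransferases of the Ugt1 and Ugt2 groups, sulfotransferases, flavin-containing monooxygenases, carboxylesterases, aldehyde dehydrogenases and epoxide hydrolases. Members were taken by gene symbol, 1 probe set per gene, and the rule used no measured difference between groups. Earlier results of these data were known when it was set. They came to 72 of the 4736 genes to which the array's annotation gives a single symbol. Of these, 35 had a mean above the low-value filter (a signal of 24.0) and entered the tests with 3185 genes in all, and 37 lay below it. At the edge of the filter, Cyp2f4 and Cyp2c22 were just outside, with mean signals of 24.42 and 27.43, and Ugt2b7 and Ugt2b15 just inside, with 25.51 and 29.25. The filter acts on the mean of log2 values, so its order is not that of the mean signals.

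The study used newborn rats to model necrotizing enterocolitis, in which the immature bowel becomes inflamed and dies. One set of pups was breast-fed and killed on day 1, 2, 3 or 4 of life (3 arrays a day). The other set received formula together with hypoxic stress 3 times a day and was killed on the same days (3 arrays a day), and a last group of 4 newborns was unfed and is placed at day 0 here. Formula and hypoxia were always given together and cannot be told apart. Per the labels, pups went to arrays individually rather than pooled. Strain, sex and the make-up of the formula are not given in the labels, and litters are not named. Values are quantile-normalised intensities, called signal below. Folds are on the scale of log2(signal + 8), which understates the change of genes with low signal. Called genes had an adjusted p under 0.05 in limma, with Benjamini-Hochberg adjustment over all genes tested, and intervals are 95% intervals.

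The median deposited signal of an array lay between 25.8 and 53.9. In breast-fed day 3 replicate 3, 69 of 754 abundant probe sets had lost their signal (more than 16-fold below the median of the other arrays), and in breast-fed day 4 replicate 2, 48 of 757 had. In the other 26 arrays 0 to 2 were lost. Samples were grouped by their registration into 2 accession runs of 19 and 9 arrays. Run 2 includes unfed replicate 2, which was registered apart from the other arrays of that run. All 3 breast-fed day 4 arrays are in run 2 and 2 of 3 formula day 4 arrays in run 1, so within run 1 the mean over days covers days 1 to 3 only. Results that change with the run or with the arrays that had lost probe sets are marked below.

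Drug metabolism is usually described in phases. Cytochrome P450 enzymes, flavin-containing monooxygenases and aldehyde dehydrogenases oxidise foreign compounds and hormones, while epoxide hydrolases and carboxylesterases open epoxides and esters with water. Glucuronosyltransferases and sulfotransferases then attach a polar group that helps the product leave the cell, often through efflux pumps. The small intestine is the first tissue to meet swallowed compounds, and its enterocytes hold P450 enzymes of the 3A subfamily and, after contact with ligands of the aryl hydrocarbon receptor, of the 1A subfamily.

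Promoters are shown for a pair of family 3 genes, because Cyp3a9 rose and Cyp3a23-3a1, another gene of the 3A subfamily, did not pass the same test. Each is the 250 bases before the RefSeq gene start in the GRCr8 build, read 5′ to 3′ on the minus strand of chromosome 12, at chr12:21960161-21960410 for Cyp3a9 and chr12:14398804-14399053 for Cyp3a23-3a1. Capitals mark matches, on either strand, to AGGTCA and AGTTCA, letters that many nuclear receptors recognise, and to a direct repeat of TGAACT with any 3 bases between its copies. The repeat overlaps a pair of AGTTCA matches read on the other strand, and it was searched for with the sequence of Cyp3a23-3a1 known.
Cyp3a9: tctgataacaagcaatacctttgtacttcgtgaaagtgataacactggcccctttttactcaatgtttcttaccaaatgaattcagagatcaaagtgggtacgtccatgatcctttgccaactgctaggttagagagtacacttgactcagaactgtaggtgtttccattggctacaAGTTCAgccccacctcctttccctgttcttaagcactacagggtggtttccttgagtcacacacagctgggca
Cyp3a23-3a1: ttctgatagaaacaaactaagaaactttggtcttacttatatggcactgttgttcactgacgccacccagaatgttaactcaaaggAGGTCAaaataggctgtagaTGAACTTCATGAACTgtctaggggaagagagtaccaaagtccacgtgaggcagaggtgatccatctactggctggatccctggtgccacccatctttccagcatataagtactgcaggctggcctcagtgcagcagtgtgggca
The Cyp3a9 window held 1 AGTTCA match, 73 to 68 bases before the start. The Cyp3a23-3a1 window held AGGTCA 164 to 159 bases before the start and the repeat 144 to 130 bases before it. Among 33469 promoter windows of the same length, AGGTCA was found in 14.1%, AGTTCA in 12.2%, TATAAA, which neither window held, in 12.9%, and the repeat in 2 windows (0.00598%), those of Cyp3a23-3a1 and Cyp3a2. The promoter table held 60 of the 72 members, of which 12 had AGGTCA, 16 had AGTTCA and 16 had TATAAA. These matches describe the letters of the windows, and binding was not measured.

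The main comparison set pups under formula and hypoxia against breast-fed pups of the same age. Averaged over days 1 to 4, Cyp3a9, a P450 of steroids and drugs, was 4.72-fold higher, and Sult1a1, a sulfotransferase of phenols, 2.41-fold higher. Ugt2b, a glucuronosyltransferase, was 1.36-fold higher, and Aldh7a1, the aldehyde dehydrogenase of lysine breakdown, was 1.62-fold lower. In all, 4 of 35 tested members were called, 3 higher and 1 lower. Over all 3185 genes 11.4% were called, 4.68% higher and 6.75% lower, and the members' 11.4% does not set them apart. The change was above 0 in 27 of the 35 members and in 52.81% of all genes tested, and its median on the log2 scale was 0.16 for the members and 0.02 for all genes.

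**Figure D1:**
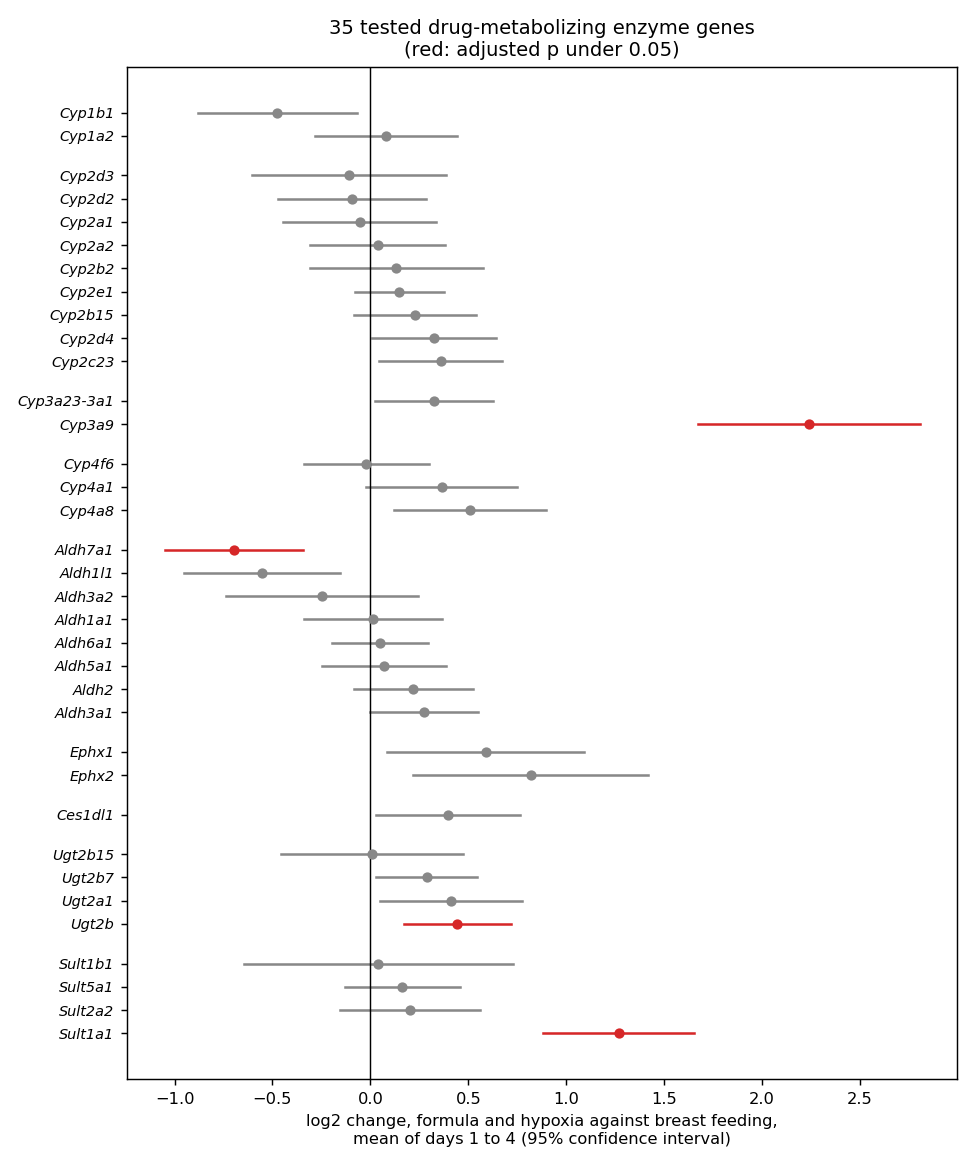
Change between the regimens as a mean of days 1 to 4, on the log2 scale (horizontal axis), for the 35 tested members grouped by enzyme family. Points are estimates and lines are 95% intervals from limma over 28 arrays. Red marks an adjusted p under 0.05, and Cyp3a9 at 2.24 and Sult1a1 at 1.27 lie farthest to the right.

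Cyp3a9 had the largest change of the tested members. The breast-fed arrays, in replicate order, read 95.69, 128.9 and 113 (day 1), 67.07, 67.55 and 85.71 (day 2), 107.7, 69.38 and 45.83 (day 3), and 108.9, 21.37 and 89.02 (day 4). The unfed newborns had 54.3, 136.2, 74.67 and 58.87. Breast-fed and unfed pups thus overlapped, and the lowest array, at 21.37, was one of the pair with lost probe sets.

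The formula arrays read 54.7, 262.2 and 284.1 (day 1), 392.7, 259.7 and 290.6 (day 2), 408.7, 349.9 and 1377 (day 3), and 496.2, 1100 and 976 (day 4) for Cyp3a9. On days 2, 3 and 4 every formula array lay above every breast-fed array of the day, and 11 of 12 formula arrays lay above the breast-fed mean of their day, the exception being day 1 replicate 1. The log2 change over the days was 2.24 (4.72-fold, 3.19 to 6.99, n = 12 against 12 arrays, limma adjusted p = 4.08e-06). It passed in 41 of 41 alternative settings, with values between 1.74, in accession run 1 and over days 1 to 3 only, and 2.42. Cyp3a9 is measured by a single probe set.

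**Figure D2:**
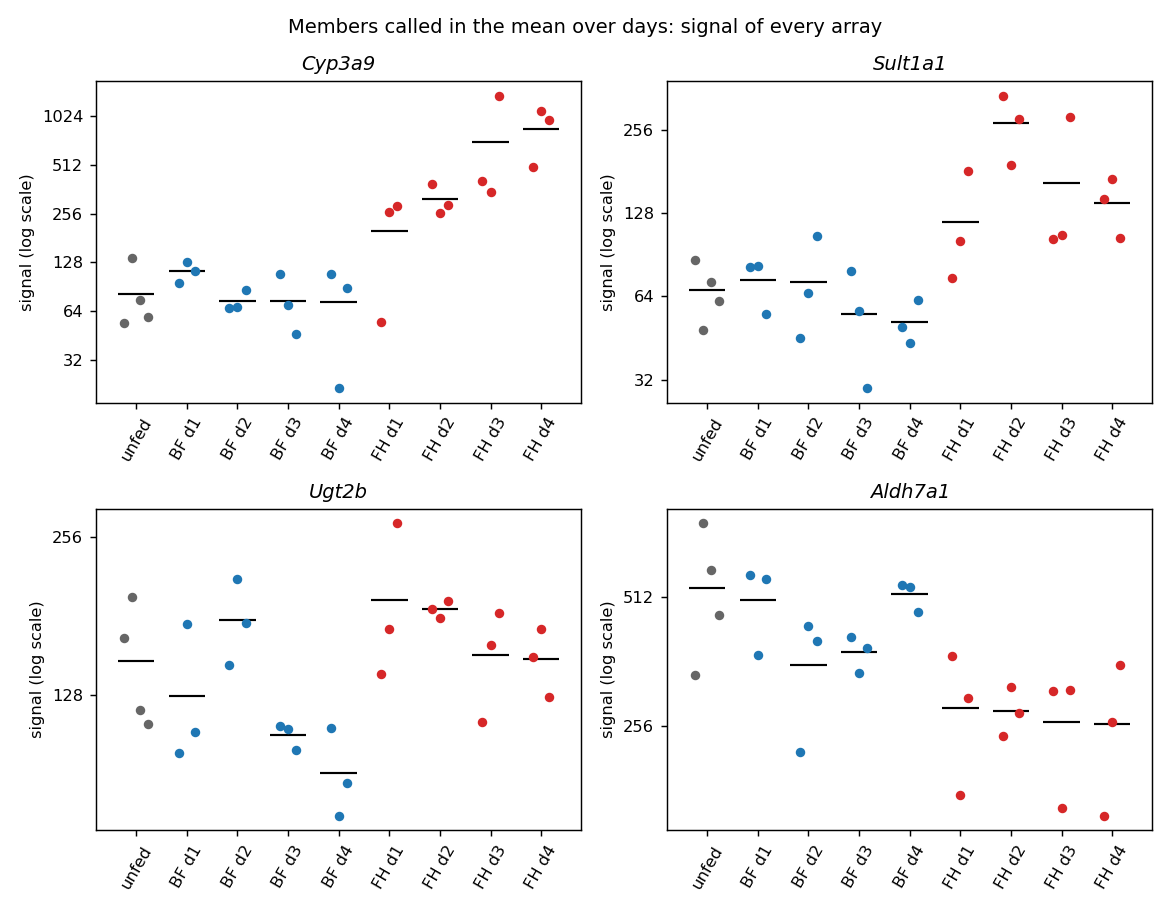
Signal of every array (vertical log axis) for the members called in the mean over days, by group: unfed newborns (grey), breast-fed pups (BF, blue) and pups given formula and hypoxia (FH, red) on days 1 to 4 (d1 to d4). Points are arrays and black lines are group means of the signal. For Cyp3a9, 11 of 12 red points lie above the breast-fed mean of their day. For Aldh7a1 all 12 lie below it.

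The other tested family 3 gene, Cyp3a23-3a1, which encodes a major drug-oxidising P450 of rat liver, had a change of 0.33 (interval 0.02 to 0.63, adjusted p = 0.153). Its other probe sets gave 0.03, 0.36 and 0.09. Cyp3a18 and Cyp3a2 were below the filter, with mean signals of 18.01 and 0.98.

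Cyp1a1 stood out among the genes below the filter, and it was singled out after its values had been seen. It encodes the P450 that is the standard target of the aryl hydrocarbon receptor and oxidises polycyclic aromatic compounds. The formula arrays read 72.35, 34.66 and 144.9 (day 1), 185.7, 160 and 118.9 (day 2), 6.945, 14.15 and 6.449 (day 3), and 6.105, 6.431 and 6.444 (day 4) for this gene. In the 12 breast-fed arrays it ran from 3.118 to 14.19 with a median of 8.312, and in the unfed newborns it was 9.967, 6.041, 8.424 and 10.71. The 6 formula arrays of days 1 and 2 thus lay between 34.66 and 185.7, and the 22 other arrays lay between 3.118 and 14.19, with no overlap. Its mean over all arrays was low because most arrays were low, which is why the filter removed it.

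**Figure D3:**
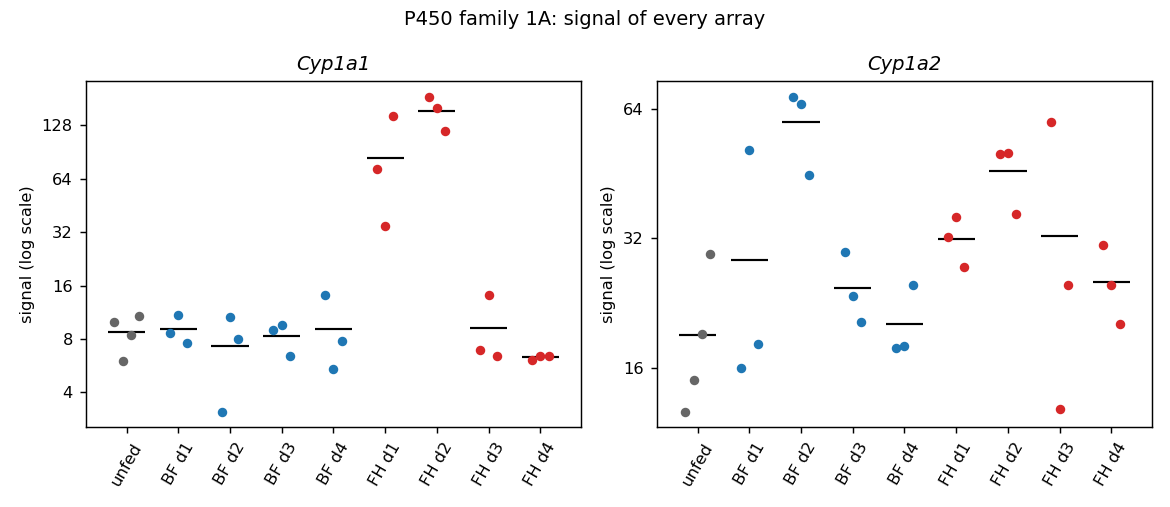
Signal of every array (vertical log axis) for Cyp1a1 and Cyp1a2, by group: unfed newborns (grey), breast-fed pups (BF, blue) and pups given formula and hypoxia (FH, red) on days 1 to 4. Points are arrays and black lines are group means. The 6 formula arrays of days 1 and 2 stand at 34.66 to 185.7 for Cyp1a1, above the 22 other arrays.

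With the filter lifted and the p-values adjusted over all 4736 genes, Cyp1a1 was 4.74-fold higher on day 1 (3.02 to 7.44, n = 3 against 3 arrays, limma adjusted p = 0.00108). On day 2 it was 10.75-fold higher (6.85 to 16.87, adjusted p = 4.31e-07). It had the smallest p of the 4736 genes on each of these days, when 0.232% (day 1) and 0.802% (day 2) of them were called. In the mean over days it was 2.59-fold higher (2.07 to 3.25, adjusted p = 2.72e-06), beside 7.77% of genes called. On day 3 the log2 change was 0.05 (interval -0.60 to 0.70) and on day 4 it was -0.23 (-0.88 to 0.42), neither called. The change of the effect from day 1 to day 4 was itself called (log2 -2.47, interval -3.39 to -1.55, adjusted p = 0.0124; 0.106% of genes). That call was lost on removing breast-fed replicate 1 of day 1 (-2.45, adjusted p = 0.056) or of day 4 (-2.27, adjusted p = 0.0641), or the third formula replicate of day 4 (-2.48, adjusted p = 0.0553). The calls on days 1 and 2 held in 36 of 36 alternatives, chosen after seeing the data. The log2 change on day 2 depends on the pseudocount, at 4.16 with 2 and 2.24 with 32, because the other arrays lie near the 8 that was added. Against unfed newborns, Cyp1a1 on day 1 of formula and hypoxia was 4.83-fold higher (3.17 to 7.37, adjusted p = 0.000281; 0.317% of genes), and in accession run 1 alone, which holds 1 unfed array, this was log2 2.17 (adjusted p = 0.213, with that array assumed to vary like the other groups). From day 1 to day 4 of formula and hypoxia it fell 5.63-fold (3.59 to 8.83, adjusted p = 8.97e-05).

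Cyp1a2, the neighbouring P450 of the same subfamily, did not share these values by the probe set used for it. Its formula arrays read 32.23, 35.95 and 27.49 (day 1) and 50.26, 50.75 and 36.53 (day 2). Its breast-fed arrays read 15.94, 51.36 and 18.15 (day 1) and 68.45, 65.83 and 45.09 (day 2), so the groups overlapped on both days. The change over the days was 0.08 (-0.28 to 0.44, adjusted p = 0.816). Its other probe sets lay below the filter, with mean signals of 5.25 and 4.82. They gave -0.004 and 0.27 over the days, and -0.15 and 0.80 on day 2. Whether the difference between the genes passes a test was not tested. Cyp1b1, a P450 of hormones and aromatic compounds outside the liver, had a change of -0.47 (-0.88 to -0.07, adjusted p = 0.12), and its other probe sets gave 0.06, -0.20 and 0.01. The aryl hydrocarbon receptor gene Ahr was below the filter, between 10.79 and 31.41, and its partner Arnt had a change of 0.23 (adjusted p = 0.324).

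In family 2, the largest of the P450 families, 9 of 21 genes were tested and 0 were called. By the probe set used for each gene, their changes in the mean over days ran from -0.11 to 0.36. Another Cyp2e1 probe set above the filter had -0.51. Cyp2d4, a P450 of amines also found in brain, had a mean signal of 358.2 and a change of 0.32 (0.01 to 0.64, adjusted p = 0.175), and Cyp2d2, with a mean signal of 181.8, had -0.09. In family 4, whose enzymes hydroxylate the ends of fatty acids, 3 of 9 genes were tested and 0 called. Cyp4a8 had 0.51 (0.12 to 0.90, adjusted p = 0.0826) and Cyp4f6 -0.02 (-0.34 to 0.30, adjusted p = 0.955). Over all P450 members, 37 genes with 16 tested, Cyp3a9 was the 1 called in this comparison with the filter.

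Of 9 aldehyde dehydrogenase genes 8 were tested, and 1 was called, Aldh7a1. Its breast-fed arrays read 577.6, 375.3 and 563.8 (day 1), 222, 437.6 and 404.2 (day 2), 414.3, 340.1 and 389.6 (day 3), and 546.4, 540.1 and 473.8 (day 4). Its formula arrays read 372.2, 176.5 and 298.2 (day 1), 242.3, 315.3 and 275.1 (day 2), 309.4, 164.8 and 310.2 (day 3), and 157.8, 261 and 356.3 (day 4). By the probe set used for the gene, the groups did not overlap on days 1, 3 and 4, and on day 2 a breast-fed array, at 222, was the lowest.

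The unfed newborns had 336.2, 762.3, 592.9 and 464.4 for Aldh7a1. Its log2 change was -0.70 (1.62-fold lower, 1.27 to 2.07, adjusted p = 0.00886), with 12 of 12 formula arrays below the breast-fed mean of their day. The call was lost with the accession run as a term (-0.60, adjusted p = 0.0565) and within run 1 over days 1 to 3, without the day of its largest change (-0.64, adjusted p = 0.0781). Across 41 alternatives its adjusted p spanned 0.00414 to 0.0781. A second probe set, also above the filter, gave -0.30, with -0.74, -0.21, 0.05 and -0.29 on days 1 to 4. The other tested aldehyde dehydrogenases had changes from -0.56, for Aldh1l1 of folate metabolism (adjusted p = 0.0644), to 0.27, for Aldh3a1.

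Both epoxide hydrolase genes were tested and neither was called. Ephx2, the soluble enzyme that opens fatty acid epoxides, ranged from 54.28 to 466.7 in the breast-fed arrays (median 165.2) and from 110 to 527.1 under formula and hypoxia (median 334.9). The lowest breast-fed array, at 54.28, had lost probe sets. The groups overlapped widely, and 10 of 12 formula arrays lay above the breast-fed mean of their day. The change was 0.82 (0.22 to 1.42, adjusted p = 0.0715), and its 3 other probe sets gave 1.08, 1.11 and 0.86. Ephx1, the microsomal enzyme of foreign epoxides, had a change of 0.59 (0.08 to 1.09, adjusted p = 0.12), with 9 of 12 formula arrays above the breast-fed mean of their day. The lowest Ephx1 array, at 15.77, was a breast-fed array with lost probe sets.

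Among carboxylesterases, which split ester drugs and lipids, 1 of 5 genes was tested. Ces1dl1 ranged from 17.91 to 106 in breast-fed arrays and from 37.34 to 119.3 under formula and hypoxia, with a change of 0.40 (0.03 to 0.76, adjusted p = 0.154). Its lowest array, at 17.91, was a breast-fed array with lost probe sets. Ces1c had a mean signal of 24.16, below the filter. Fmo1, the flavin-containing monooxygenase on the array, was also below it, between 2.423 and 20.93 in breast-fed and between 3.024 and 38.2 in formula arrays.

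Of 9 sulfotransferase genes 4 were tested, and 1 was called. For Sult1a1 the breast-fed arrays read 81.94, 82.25 and 55.29 (day 1), 45.15, 65.87 and 105.5 (day 2), 78.96, 56.55 and 29.89 (day 3), and 49.45, 43.58 and 62.16 (day 4). The formula arrays read 74.37, 101.1 and 181.1 (day 1), 339.5, 190.1 and 279.8 (day 2), 103, 106.9 and 283.8 (day 3), and 143.6, 170.4 and 104.4 (day 4). The unfed newborns had 86.54, 48.42, 72.22 and 61.82. On days 2 to 4 every formula array was above every breast-fed array of the day. The lowest breast-fed array, at 29.89, had lost probe sets.

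The log2 change of Sult1a1 over the days was 1.27 (2.41-fold, 1.84 to 3.15, adjusted p = 5.64e-05), with 12 of 12 formula arrays above the breast-fed mean of their day. It passed in 41 of 41 alternatives. A second probe set gave 1.39. Sult1b1, a sulfotransferase of thyroid hormones and phenols, ranged from 92.33 to 856.8 in breast-fed and from 117.5 to 788.3 in formula arrays, with a change of 0.04 (-0.65 to 0.73, adjusted p = 0.956). Sult5a1 had a change of 0.16.

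Of 9 glucuronosyltransferase genes 4 were tested, and 1 was called. The Ugt1 members, Ugt1a5 and Ugt1a9-ps, the latter a pseudogene by its symbol, were below the filter. Their mean signals were 4.64 and 9.75, so the tested genes were all of the Ugt2 group. For Ugt2b the breast-fed arrays read 98.88, 174.5 and 108.5 (day 1), 145.9, 213.3 and 175.2 (day 2), 111.6, 110.1 and 100.4 (day 3), and 110.4, 75.09 and 86.54 (day 4). Its formula arrays read 140.1, 171.2 and 272.3 (day 1), 186.6, 179.3 and 193.3 (day 2), 113.3, 159.4 and 183.8 (day 3), and 151.2, 170.7 and 126.8 (day 4). The unfed newborns had 164.6, 196.8, 119.7 and 112.6. The groups were apart on days 3 and 4 and overlapped on days 1 and 2.

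The log2 change of Ugt2b was 0.44 (1.36-fold, 1.13 to 1.64, adjusted p = 0.0293), and 12 of 12 formula arrays lay above the breast-fed mean of their day. The call was lost in 10 of 41 alternatives, at an adjusted p of 0.0805 with the run as a term, 0.121 within run 1 over days 1 to 3 and 0.0779 with the pair of breast-fed arrays with lost probe sets removed. It was also lost, at 0.0518 to 0.0595, on removing any one of 7 arrays: replicates 1 and 3 of breast-fed day 1, replicate 1 of its day 2, replicate 2 of its day 4, and, under formula and hypoxia, the third replicates of days 1 and 3 and the second of day 4. Its other probe sets, both below the filter, gave 0.12 and -0.02. Genes of the Ugt2b group are close relatives that a probe set may not separate, which was not tested. Ugt2a1, known from the nasal lining, had a mean signal of 30.12 and a change of 0.41.

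The 31 tested members that were not called had changes from -0.56 to 0.82, and for 29 of them the interval lay within a 2-fold change either way. By an unadjusted p under 0.05, 15 of 35 members and 852 of 3185 genes differed.

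Day by day, the members called were few. On day 1, limma called 0 of 35 members (0.283% of all genes), with 4 members and 291 of 3185 genes at an unadjusted p under 0.05. On day 2 it called Sult1a1, at 3.54-fold (2.07 to 6.06, n = 3 against 3 arrays, adjusted p = 0.0101; 1.48% of all genes). This call was lost on removing the first (1.56, adjusted p = 0.0848) or second (1.80, adjusted p = 0.052) breast-fed replicate of that day or the first formula replicate (1.64, adjusted p = 0.0671).

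On days 3 and 4 Cyp3a9 was the 1 member called. It was 7.54-fold higher on day 3 (3.44 to 16.51, adjusted p = 0.00346; 2.01% of all genes) and 11.82-fold higher on day 4 (5.40 to 25.89, adjusted p = 0.000477; 1.98% of all genes). The day 3 call was lost when the spread was taken from the arrays of that day alone (adjusted p = 0.0979). In accession run 2 alone, which holds 1 formula array of day 4, the day 4 change was 3.83 (adjusted p = 0.408).

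Cyp3a9 had log2 changes of 0.51 (-0.62 to 1.64), 1.97 (0.84 to 3.10), 2.91 (1.78 to 4.05) and 3.56 (2.43 to 4.69) on days 1 to 4. The change from day 1 to day 4 was 3.05 (1.45 to 4.65, unadjusted p = 0.000597, adjusted p = 0.122), so a growing effect did not pass. For this test limma called 0 of 35 members (0.157% of all genes), with 2 members and 225 of 3185 genes at an unadjusted p under 0.05. The Sult1a1 values on days 1 to 4 were 0.58, 1.82, 1.38 and 1.29, those of Ugt2b 0.57, 0.08, 0.45 and 0.68, and those of Aldh7a1 -0.86, -0.29, -0.58 and -1.06.

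**Figure D4:**
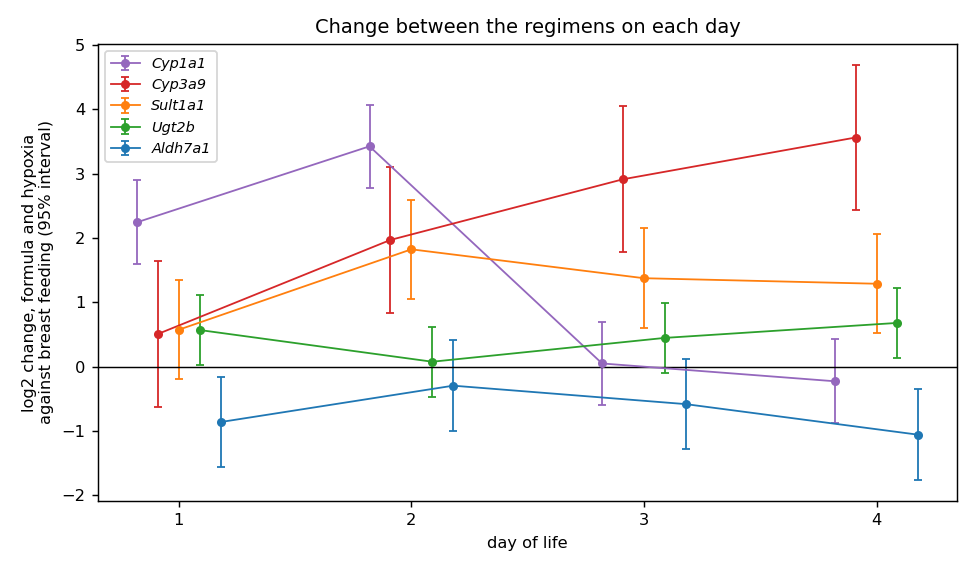
Log2 change between formula and hypoxia and breast feeding on each day of life, with 95% intervals from limma (3 against 3 arrays a day), for Cyp1a1 (fitted with the low-value filter lifted), Cyp3a9, Sult1a1, Ugt2b and Aldh7a1. Cyp1a1 is at 2.24 and 3.43 on days 1 and 2 and at 0.05 and -0.23 on days 3 and 4, while Cyp3a9 runs from 0.51 to 3.56.

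Age was compared within each regimen as day 4 against day 1. In breast-fed pups limma called 0 of 35 members (0.314% of all genes), with 3 members and 541 genes at an unadjusted p under 0.05. Under formula and hypoxia it called 3 (13.4% of all genes), 2 higher (6.62%) and 1 lower (6.78%): Cyp3a9 at 4.81-fold higher (2.19 to 10.53, adjusted p = 0.00873), Aldh2 at 3.49-fold higher (2.29 to 5.32, adjusted p = 0.000786) and Aldh1a1 at 2.56-fold lower (1.57 to 4.18, adjusted p = 0.0114).

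Aldh2, the mitochondrial enzyme that clears acetaldehyde, read 58.75, 34.84 and 42.34 (day 1), 70.77, 75.39 and 66.74 (day 2), 93.52, 116.7 and 89.67 (day 3), and 134.4, 206.4 and 193 (day 4) in the formula arrays. Day 4 lay wholly above day 1. The breast-fed arrays read 49.87, 54.12 and 43.81 (day 1) and 96.52, 120.2 and 86.6 (day 4), which did not overlap either. That breast-fed change was 0.92 (0.32 to 1.53, adjusted p = 0.129). The difference between the regimens in this change was 0.88 (0.02 to 1.74, adjusted p = 0.677), so Aldh2 is not shown to differ with the regimen.

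Aldh1a1, which makes retinoic acid from retinal, read 526.4, 480.4 and 701.2 (day 1) and 198.8, 180.2 and 275.4 (day 4) in the formula arrays, with no overlap. The breast-fed arrays read 433, 211.3 and 356.3 (day 1) and 228.2, 153.5 and 211.1 (day 4), and these overlapped. The breast-fed change was -0.69 (-1.40 to 0.01, adjusted p = 0.303), and the difference between the regimens was -0.66 (adjusted p = 0.848). The Aldh1a1 call was lost with the deposited scaling (-1.25, adjusted p = 0.0619) and on removing the first formula replicate of day 4 (-1.30, adjusted p = 0.055). The Cyp3a9 call with age was lost on removing the first formula replicate of day 1 (1.54, adjusted p = 0.0724).

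**Figure D5:**
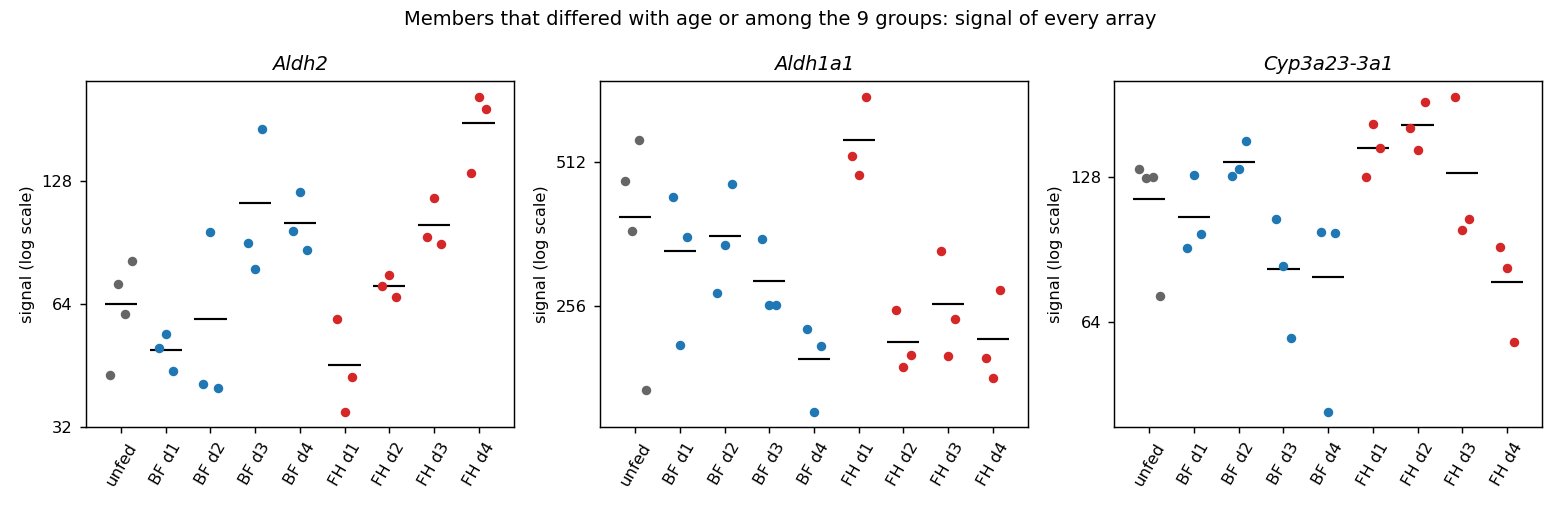
Signal of every array (vertical log axis) for Aldh2, Aldh1a1 and Cyp3a23-3a1, by group: unfed newborns (grey), breast-fed pups (BF, blue) and pups given formula and hypoxia (FH, red) on days 1 to 4. Points are arrays and black lines are group means. Aldh2 on day 4 of formula and hypoxia, at 134.4 to 206.4, lies above its day 1, and Aldh1a1 on day 4, at 180.2 to 275.4, lies below its day 1.

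The first day of each regimen was also set against unfed newborns. Breast-fed day 1 gave 0 called members by limma and 0 called genes (0% of all genes), with 2 members and 186 genes at an unadjusted p under 0.05. Formula and hypoxia day 1 gave 0 called members (0.408% of all genes), with 4 members and 318 genes at an unadjusted p under 0.05. With the filter lifted, Cyp1a1 was called in the second of these comparisons, as given above.

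Over the 9 groups together, limma's F test called 7 of 35 members, and 23.8% of all genes. They were Cyp3a9 (F 12.35, adjusted p = 9.12e-05), Aldh2 (F 7.99, adjusted p = 0.000947), Sult1a1 (adjusted p = 0.001), Aldh1a1 (0.0277), Aldh7a1 (0.034), Cyp3a23-3a1 (0.0354) and Ugt2b (0.0436). Cyp3a9, Aldh2 and Sult1a1 passed in 39 of 39 alternatives, while Ugt2b was lost in 22, Aldh7a1 in 13, Cyp3a23-3a1 in 12 and Aldh1a1 in 3. With the accession run as a term, the F test lost Aldh7a1 (adjusted p = 0.243), Ugt2b (0.169) and Cyp3a23-3a1 (0.163). Without the pair of breast-fed arrays with lost probe sets it lost the same genes, at 0.0547, 0.167 and 0.0632.

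Cyp3a23-3a1 had 132.8, 127.4, 127.7 and 72.64 in unfed newborns. Its breast-fed arrays read 90.98, 129.1 and 97.6 (day 1), 128.8, 132.6 and 151.7 (day 2), 104.7, 83.58 and 59.23 (day 3), and 98.33, 41.8 and 97.92 (day 4). Its formula arrays read 128.1, 164.9 and 146.9 (day 1), 161.7, 145.7 and 183.1 (day 2), 187.5, 99.35 and 104.6 (day 3), and 91.78, 82.87 and 58.24 (day 4). In each regimen all day 4 arrays lay below all day 2 arrays, which was not tested, and on day 4 the regimens overlapped. The lowest array, at 41.8, was a breast-fed array with lost probe sets. From day 1 to day 4 of formula and hypoxia this probe set had -0.87. The gene's other probe sets gave 0.18, -0.47 and 0.45, the last of them below the filter.

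Besides Cyp1a1, 3 other members passed a comparison between the regimens or with age only with the filter lifted, where 7.77% of all 4736 genes were called in the mean over days and 7.96% with age under formula and hypoxia. Aldh1a2, another enzyme of retinoic acid synthesis, had a change of -0.93 (adjusted p = 0.0481) in the mean over days, and Cyp4a3, a fatty acid hydroxylase, had 0.61 (adjusted p = 0.0449). Cyp4f17 had 1.36 from day 1 to day 4 of formula and hypoxia (adjusted p = 0.0197). Their mean signals were 20.15, 13.25 and 18.44. The other members below the filter had highest signals on any array from 2.163, for Cyp3a2, to 68.3, for Ces1e.

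Genes that work with these enzymes were taken from lists of the same pathway. Over all 3185 genes, 4.68% were called higher and 6.75% lower in the mean over days. With age under formula and hypoxia, 6.62% were called higher and 6.78% lower. Whether any list departs from these shares was not tested. Among 9 tested genes of P450 partners and heme supply, 1 was lower and 0 higher in the mean over days, Blvra, biliverdin reductase, at -0.70 (adjusted p = 0.0353). Por, the reductase that passes electrons to P450 enzymes, had 0.41 (adjusted p = 0.0898), Cyb5a, cytochrome b5, 0.47 (adjusted p = 0.0938), and Alas1, the first enzyme of heme synthesis, -0.01. With age under formula and hypoxia Alas1 rose by 1.68 (adjusted p = 0.0157), the 1 called of the 9. The list's median change in the mean over days was -0.01.

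The list of xenobiotic sensing receptors and co-factors held 20 genes, of which 14 were on the array and 13 were tested. The receptors Nr1i2 and Nr1i3 had no probe set with a single symbol, so they were not measured here. Among the 13 tested genes, 1 was higher, Cebpb, a transcription factor of the acute phase response, at 0.60 (adjusted p = 0.0170). The median of these genes was 0.23. With age under formula and hypoxia Cebpb rose by 1.67 (adjusted p = 0.0022), and Hnf4a, an epithelial and liver transcription factor, fell by 1.22 (adjusted p = 0.0324). Of 7 tested P450 enzymes of other families, 2 were higher and 1 lower. Cyp27a1, a sterol hydroxylase, was at 1.91 (adjusted p = 2.39e-07), Ptgis, prostacyclin synthase, at 0.92 (adjusted p = 0.00666), and Cyp17a1, a steroid hydroxylase, at -1.18 (adjusted p = 0.0131).

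Among 13 other redox enzymes, 2 were higher and 1 lower. Akr1c14, a steroid and aldehyde reductase, was at 1.15 (adjusted p = 0.0220), Nqo1, a quinone reductase, at 0.80 (adjusted p = 0.0228) and Xdh, xanthine dehydrogenase, at -1.03 (adjusted p = 0.00314). Among 16 tested genes of a conjugation list, which holds donor-making and other enzymes besides conjugating ones, 1 was higher and 4 lower. Mgst3, a microsomal glutathione transferase, was at 0.48 (adjusted p = 0.0159). Papss2, which makes the sulfate donor used by sulfotransferases, was at -1.03 (adjusted p = 0.00144), Arsb, a sulfatase, at -0.94 (adjusted p = 5.76e-05), Gstt1, a glutathione transferase, at -0.95 (adjusted p = 0.0372) and Gamt, which makes creatine, at -0.54 (adjusted p = 0.0337). Ugdh, which makes the sugar donor for glucuronidation, had 0.39 (adjusted p = 0.092), and with age under formula and hypoxia it rose by 1.62 (adjusted p = 0.00155).

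Of 9 tested drug transporters, 2 were higher: Abcc2, an efflux pump for conjugates, at 0.82 (adjusted p = 0.0302), and Slc15a1, the peptide transporter, at 0.92 (adjusted p = 0.0491). With age under formula and hypoxia Abcc2 rose by 1.76 (adjusted p = 0.0193). The list medians were 0.15 for the other P450 enzymes, 0.04 for the other redox enzymes, 0.04 for the conjugation list and 0.08 for the transporters, beside 0.02 over all genes.

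Markers of the tissue were checked against the label. Fabp6, the ileal bile acid binding protein, had signals of 417.9 to 1743, and Fabp2, the intestinal fatty acid binding protein, 2605 to 8026. Of 8 tested markers of ileal enterocytes, 0 were called in the mean over days (limma), and their summed signal was 5556 to 11460 in breast-fed, 7471 to 12470 in formula and 6014 to 8010 in unfed arrays. Of 8 liver markers, 4 passed the filter and 0 were called (summed signal 2447 to 5222, 2211 to 3955 and 1877 to 4140 in the same order). Alb, Tat, Fgb and Cyp2c11 were below the filter, with signals of 13.05 to 48.42, 1.869 to 9.118, 1.838 to 29.88 and 4.39 to 32.88 over the 28 arrays. Cps1 and Serpina1, which the gut also expresses, were at 1039 to 4345 and 459.7 to 1622, Ttr was at 32.23 to 112.2 and Apoh at 4.704 to 110.8. In bulk tissue, fewer cells of a type and less RNA per cell cannot be told apart.

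Markers of some other cell types differed with the regimen, beside 4.68% of all genes called higher and 6.75% lower. In the mean over days 3 of 4 mast cell markers were lower (summed signal 812.4 to 1653 in breast-fed, 100.9 to 821.9 in formula and 578.7 to 1236 in unfed arrays). Of 5 fibroblast markers 3 were lower (3120 to 7042, 1583 to 4638 and 2150 to 5006), and of 4 goblet and Paneth markers 2 were lower (4874 to 8213, 2630 to 6374 and 2431 to 6494). Both tested red cell markers were higher (4563 to 9574, 7100 to 10970 and 8825 to 11160). Of 2 tested markers of exocrine pancreas 1 was higher (117.7 to 232.3, 145.1 to 349.2 and 146.8 to 306.9). Of 5 smooth muscle markers 0 were called in the mean over days, and 3 rose with age under formula and hypoxia. With that age 6.62% of all genes were called higher and 6.78% lower. In that age comparison, which called Cyp3a9, Aldh2 and Aldh1a1, the goblet cell mucin Muc2 also rose, by 2.61 (adjusted p = 0.00186). One marker each fell of liver (Ttr, -0.85), fibroblasts (Lum, -1.41), mast cells (Mcpt1, -1.82), exocrine pancreas (Pnlip, -0.98) and red cells (Alas2, -1.12), with adjusted p from 0.0171 to 0.0388, and 0 of 8 enterocyte markers were called. Their part in the values of the enzyme genes was not tested.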

How the data were processed

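Total RNA of 28 terminal ileum samples was measured with an Affymetrix rat array. The authors deposited 1 linear intensity per probe set and array; which software, background correction and summary made them is not given in the sources used here. The deposited intensities were quantile normalised, 8 was added, and log2 was taken. Probe sets above the 40th percentile of mean log2 (5244, a signal of 24.0) were kept, and the 59 control probe sets were left out. The probe set of highest mean log2 stood for each gene. A further 34 probe sets carry several symbols and were left out of the members. All 72 members matched a RefSeq gene by gene ID. Limma 3.58.1 in R 4.3.3 fitted 1 mean per group to 28 arrays (19 residual degrees of freedom), with two-sided tests, a trend of the spread on intensity and p-values adjusted by Benjamini-Hochberg; it was tested on simulated data. The number of arrays limits the precision.

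Members and lists were chosen with earlier results of these data known. Named were called members, with array values for those called in the mean over days and for the 5 of largest change elsewhere, the 2 of highest mean per family, members of untested families, and list genes, the called ones first. Cyp1a1, Cyp1a2's daily values, Ephx2's ranges and members at the ends of a range were named after their values were seen. Same-numbered samples of a day did not deviate together (0 of 12 pairs over 0.1, -0.133 to 0.0858), so numbers were not taken as pairs. Alternatives changed the pseudocount, filter, scaling, probe set rule, accession run, array weights, replicate block, groups in the fit and arrays left out.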

Additional observations from a re-analysis of the deposited data

Results flagged for a closer look

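Cyp1a1 was picked out because the difference between the regimens changed with age. In the fit with the filter lifted, the effect of formula and hypoxia changed by -2.47 on the log2 scale from day 1 to day 4 (limma adjusted p = 0.0124), from 2.24 on day 1 to -0.23 on day 4.

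In the unfed newborns, Cyp3a23-3a1 had a signal of 72.64 in replicate 4, far below the other 3 arrays, which lay between 127.4 and 132.8. It was the 1 member of 35 with such an array in this group. Chance gives one in about 5% of groups, or 1.75 of 35 members.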

How the results depend on the processing

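No member called in a comparison with a direction changed sign under any alternative, and Cyp3a9 and Sult1a1 kept their calls in the mean over days in 41 of 41. The number of called members moved by over 1.5 times as follows. Without the filter, where all 72 members were tested, it was 7 for the mean over days (7.77% of all genes) and 1 on day 1 (0.232%). It was 2 on day 2 (0.802%) and 1 for the change of the effect (0.106%). With age under formula and hypoxia it was 5 (7.96%), and for formula and hypoxia day 1 against unfed it was 1 (0.317%). With array weights it was 8 for the mean, 2 on day 2, 2 on day 3, 3 on day 4, 1 for the change, 1 with breast-fed age, 8 with age under formula and hypoxia and 19 in the F test. With the accession run as a term it was 2 for the mean and 4 in the F test, and in run 2 alone 0 on day 4. With the deposited scaling it was 2 on day 3 and 1 with breast-fed age, with 1 test per probe set 2 on days 2 and 3, and with the 60th percentile filter 5 with age under formula and hypoxia. Fitting only the groups compared gave 2 on day 2 and 0 on day 3, and leaving out both arrays that had lost probe sets gave 2 on day 2. Leaving out 1 array at a time gave 3 to 6 for the mean, 0 to 2 on day 2, 1 to 2 on days 3 and 4, 2 to 4 with age under formula and hypoxia, and 4 to 11 in the F test, with 11 on removing the second breast-fed replicate of day 1 and 4 on removing formula replicate 1 or 3 of day 2 or replicate 2 of day 4. The causes of these moves were not tested. For settings other than the lifted filter, the member counts are given without the share of all genes called in each comparison. They therefore do not show whether the members depart from all genes. Over all genes, the 364 called in the mean over days became 549 with 1 test per probe set, 203 with the run as a term, 172 in run 1 over days 1 to 3 and 593 with array weights, and the 10 called with breast-fed age became 149 with the deposited scaling. Over all alternatives the counts over all genes were 0 to 58 on day 1 (9 as reported), 19 to 148 on day 2 (47), 4 to 96 on day 3 (64), 0 to 122 on day 4 (63), 0 to 20 for the change (5), 150 to 720 with age under formula and hypoxia (427), 0 to 62 and 0 to 92 for breast-fed (0) and formula (13) day 1 against unfed, and 551 to 1510 in the F test (759). With the replicate block, 4 members were called in the mean over days, 4 with age under formula and hypoxia and 6 in the F test, where Aldh7a1 was at adjusted p = 0.0548. The 3 or 4 arrays a group limit the precision, and a member below the filter is not shown to be absent.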

Other observations

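Glucuronosyltransferases of the Ugt1a group, which conjugate bilirubin, phenols and many drugs, share their last exons, and many of their probe sets carry several symbols and so were not members. The 5 brightest of these probe sets, with mean signals of 487.4 to 3107 and picked after seeing the data, had changes in the mean over days of 0.92 (adjusted p = 0.182, adjusted over probe sets), 0.91 (0.146), 0.87 (0.228), 0.78 (0.17) and 0.39 (0.269). Breast-fed days 3 and 4 each hold an array with lost probe sets. The probe set at 0.92 had 2663 (standard deviation 2333) on breast-fed day 4. That at 0.91 had 1835 (1608) on breast-fed day 3, while that at 0.39 had 830.9 (41.9) on breast-fed day 4. The part of those arrays in these changes was not tested. Of the 9 above the filter, 1 passed, a probe set for 6 of these genes with a mean signal of 112.9 and a change of 0.43 (adjusted p = 0.0496). The 3 others for the same 6 genes, outside the 5 brightest, had 0.41 (0.352), 0.29 (0.601) and 0.20 (0.55).

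A pair of Cyp2e1 probe sets, singled out after their values were seen, gave different values. The one used for the gene had a change of 0.15 (standard error 0.12) in the mean over days and 0.27 on day 2. Another, also above the filter, had -0.51 (standard error 0.13) and -1.50. With 1 test per probe set, Cyp2e1 was called in both comparisons.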
